A study of Sus scrofa with 120 samples.

Results

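The genes described here encode fibroblast growth factors (FGFs) and their receptors: the ligand genes FGF1, FGF2, FGF7 and FGF18 and the receptor genes FGFR1, FGFR2 and FGFR3. Members were the lines of a deposited gene count table that carry one of these 7 symbols. Of 31907 gene identifiers, 6 matched, and FGF7 had no line under its own name. The libraries come from primary chondrocytes of pig femoral cartilage cast in 2% agarose, and the series asks which genes respond when the ion channels TRPV4 and PIEZO1 are activated by a drug or by mechanical stimulation. There were 120 libraries in 30 groups of 4, 48 in a TRPV4 experiment and 72 in a PIEZO1 experiment, with harvests 3 h and 9 h after stimulation began. These times count from the onset and do not tell whether a stimulus was still applied at harvest.

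In the TRPV4 experiment there were 6 conditions. Controls were free-swelling constructs given DMSO. Treated constructs received GSK101, a TRPV4 agonist (1 nM), GSK205, which blocks TRPV4 (10 uM in the series' design text, although the treatment protocol writes mM), cyclic compressive loading to 10% deformation, loading with GSK205, or the inflammatory cytokine IL-1 (1 ng/mL, called IL-1a in the protocol). In the PIEZO1 experiment, chondrocytes were non-transfected (NT), transfected with a non-targeting siRNA (siNTC) or transfected with siRNA against PIEZO1 (siPIEZO1), although the sample titles speak of transduction. Each of these 3 states was left with a DMSO vehicle, given the PIEZO1 agonist Yoda1 (5 uM in the design text, mM in the protocol) or compressed slowly to 80% deformation. All cells were labelled wild type, and the labels do not tie the libraries to animals, so the p-values rest on the spread between these samples, which may be technical.

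FGFs of the FGF1 and FGF2 kind leave cells without a classical signal peptide and are held in the matrix on heparan sulfate chains, from which they reach their receptors together with those chains. Bound receptors signal through the adaptor FRS2 and the RAS, RAF, MEK and ERK cascade, which switches on its own inhibitors, among them the Sprouty (SPRY), SPRED and DUSP genes, and ETV transcription factors. In cartilage FGF2 is stored around chondrocytes, FGF18 promotes cartilage formation in mice, and FGFR3 restrains growth of the growth plate in mice and humans.

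Total counts ran from 20651530 to 80223797 in TRPV4 libraries and from 36807992 to 66240251 in PIEZO1 libraries. The GSK101 libraries at 3 h were the deepest of the TRPV4 experiment, with at least 62677053 counts against at most 29904509 in DMSO libraries at 3 h. Loading libraries at 3 h were also all deeper than those DMSO libraries, at 31848889 to 66758428 counts. IL-1 libraries at 9 h had at least 36091153 counts against at most 35352928 in DMSO libraries at 9 h. Both experiments carried chondrocyte markers, with a summed level of 85140 to 150560 CPM (a gene's reads relative to the depth of its library) over 13 genes in TRPV4 libraries and 15776 to 44910 CPM in PIEZO1 libraries. In PIEZO1 libraries the medians of single chondrocyte markers ran from 3.06 CPM (MATN3) to 15323 CPM (COMP). Summed fibroblast and synovial markers were 520 to 1329 CPM in TRPV4 libraries and 312 to 2990 CPM in PIEZO1 libraries. Summed leukocyte markers reached at most 98.3 CPM, and PTPRC, which defines leukocytes, at most 0.557 CPM. Endothelial markers together stayed at or under 9.68 CPM. PIEZO1 mRNA in siPIEZO1 vehicle libraries was 4.77 ± 0.420 CPM against 5.63 ± 1.53 CPM in siNTC vehicle libraries at 3 h (SD, n = 4, adjusted p = 0.58) and 3.45 ± 1.10 against 5.49 ± 1.24 CPM at 9 h (adjusted p = 0.062), so the knockdown did not pass the test at the RNA level. The experiments were made with different library kits, and no level was compared between them.

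CPM were computed on library totals scaled by TMM. They are not divided by gene length, so levels are compared between libraries of 1 gene and never between genes. A gene was called changed when its adjusted p in edgeR's quasi-likelihood test was under 0.05, with Benjamini-Hochberg adjustment over all genes tested, and a change is a log2 fold change with its standard error (SE). In bulk RNA, fewer cells with a transcript and less of it per cell cannot be told apart. All treated groups of a time in the TRPV4 experiment were compared with the same 4 DMSO libraries.

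FGF1, a ligand of all FGF receptors, rose under loading and under the TRPV4 agonist, with its highest levels at different times. FGF1 lies on chromosome 2 at 144133846 to 144241345 (Sscrofa11.1, RefSeq), under the identifier ENSSSCG00000024954. At 3 h the DMSO libraries held 3.36, 1.75, 2.32 and 2.54 CPM and the loading libraries 17.8, 19.8, 27.6 and 18.8 CPM. Every loaded library lay above every control, and the change was 3.08 ± 0.21 (adjusted p = 2.8e-12), an 8.46-fold rise. Mean FGF1 under DMSO and GSK205 was low at both times, at 1.21 to 2.49 CPM, so fold changes against these groups have small denominators. GSK101 libraries at 3 h held 3.26, 3.51, 4.75 and 4.32 CPM, which overlapped the DMSO range. The change of 0.68 ± 0.21 was called (adjusted p = 0.0099), but not without DMSO replicate 2, where it was 0.55 (adjusted p = 0.053).

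At 9 h this order of FGF1 levels turned over. GSK101 libraries held 30.9, 32.6, 33.4 and 33.5 CPM against 2.07, 1.87, 1.93 and 2.22 CPM in DMSO libraries. The groups were far apart, with a change of 4.01 ± 0.19 (adjusted p = 1.3e-18), a 16.1-fold rise. Loading libraries had come down to 5.17, 7.74, 6.08 and 5.85 CPM, still all above DMSO (1.62 ± 0.19, adjusted p = 2e-07). Tested directly, the GSK101 effect on FGF1 was 3.38 ± 0.30 larger at 9 h than at 3 h (adjusted p = 1.3e-13), and the loading effect was lower at 9 h by -1.43 ± 0.30 (adjusted p = 0.0012). GSK101 gave less FGF1 than loading at 3 h (-2.40 ± 0.18, adjusted p = 8.1e-12) and more at 9 h (2.39 ± 0.16, adjusted p = 2.2e-14).

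GSK205 lowered FGF1 with and without loading at 3 h, and loading raised it in the presence of GSK205. Loaded constructs with GSK205 at 3 h held 8.91, 10.2, 7.20 and 4.40 CPM, all below the loading libraries and all above the 1.55, 1.50, 1.32 and 1.90 CPM of GSK205 alone. The change against loading was -1.46 ± 0.18 (adjusted p = 1e-06), and that against GSK205 alone 2.28 ± 0.22 (adjusted p = 6.4e-09). GSK205 against DMSO gave -0.66 ± 0.24 (adjusted p = 0.041), a call that was lost when any of 6 of the 8 libraries was left out (GSK205 replicates 1, 2 and 3 and DMSO replicates 1, 3 and 4, adjusted p 0.057 to 0.16). The interaction of loading and GSK205 gave -0.80 ± 0.30 on the log2 scale and was not called (adjusted p = 0.17). At 9 h loaded constructs with GSK205 held 5.55, 8.19, 5.14 and 4.05 CPM, a range that overlapped loading alone (-0.11 ± 0.17, adjusted p = 0.81). GSK205 alone at 9 h held 1.81, 1.54, 0.746 and 0.741 CPM (-0.77 ± 0.24 against DMSO, adjusted p = 0.022), a call lost without GSK205 replicate 3 or 4 or DMSO replicate 4 (adjusted p 0.056 to 0.11). IL-1 was not called for FGF1 at 3 h (2.19 ± 0.275 CPM, SD, -0.20 ± 0.23) or at 9 h (1.85 ± 0.261 CPM, -0.12 ± 0.22).

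Ordered by level, FGF1 at 3 h ran from loading through loading with GSK205, GSK101, DMSO and IL-1 to GSK205. Apart from the step below loading and the step from IL-1 to GSK205, neighbours in that order overlapped. At 9 h the order was GSK101, loading, loading with GSK205, DMSO, IL-1 and GSK205. The steps from GSK101 to loading and from loading with GSK205 to DMSO were free of overlap, and the other neighbours shared part of their ranges.

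**Figure D1:**
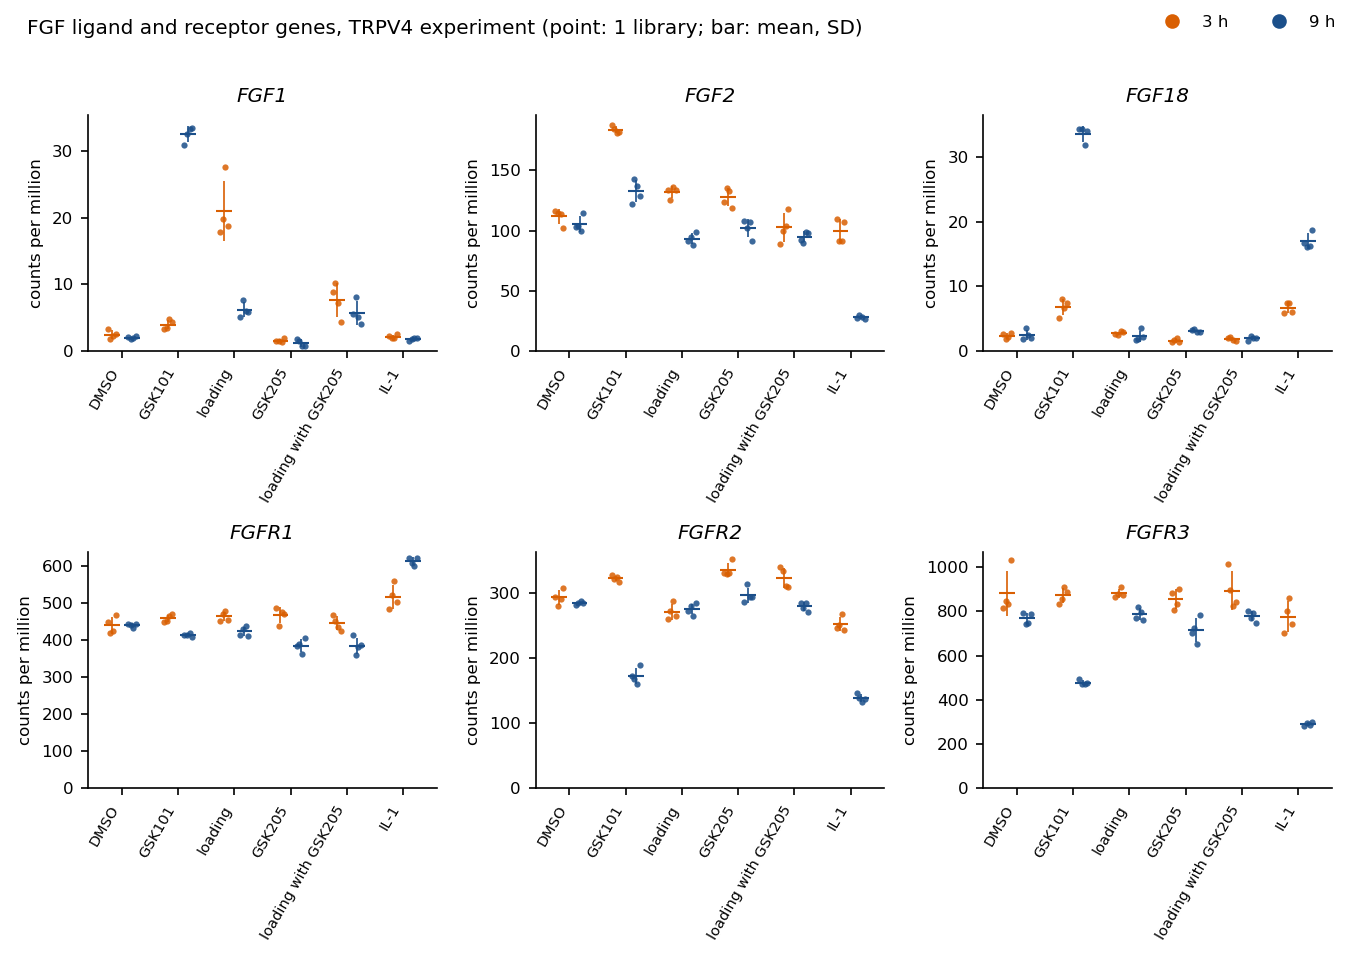
Levels in CPM of the 6 genes (vertical axes, each from 0) in each library of the TRPV4 experiment by condition (horizontal axis), with orange points for 3 h, blue points for 9 h, and bars for the mean and SD of 4 libraries. FGF1 is highest under loading at 3 h (17.8 to 27.6 CPM) and under GSK101 at 9 h (30.9 to 33.5 CPM), and FGFR2 and FGFR3 are lowest under GSK101 and IL-1 at 9 h.

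FGF1 also rose under compression and under Yoda1 in NT cells of the PIEZO1 experiment at 3 h. At 3 h NT vehicle libraries held 187, 189, 206 and 272 CPM, NT compression libraries 454, 382, 429 and 368 CPM, and NT Yoda1 libraries 343, 324, 340 and 410 CPM. Both stimulated groups lay above all vehicle libraries, with changes of 0.94 ± 0.11 for compression (adjusted p = 1.3e-07) and 0.73 ± 0.11 for Yoda1 (adjusted p = 0.00018). Compression against Yoda1 was 0.20 ± 0.11 and not called (adjusted p = 0.32).

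In transfected cells compression again raised FGF1 at 3 h. The siNTC libraries went from 186, 191, 174 and 190 CPM under vehicle to 272, 260, 283 and 268 CPM under compression (0.55 ± 0.11, adjusted p = 0.0051). The siPIEZO1 libraries went from 161, 191, 236 and 178 CPM to 254, 282, 295 and 279 CPM (0.54 ± 0.11, adjusted p = 0.011), a call lost without siPIEZO1 compression replicate 3 (0.50, adjusted p = 0.058). In each state the compressed libraries stood above all their vehicle libraries, and the difference between the compression effects in siPIEZO1 and siNTC cells was -0.01 ± 0.15 (adjusted p = 1.0). Yoda1 was not called in siNTC cells, at 200, 244, 195 and 198 CPM (0.18 ± 0.11, adjusted p = 0.36), or in siPIEZO1 cells, at 263, 242, 228 and 275 CPM (0.40 ± 0.11, adjusted p = 0.11), and the difference of these effects was 0.22 ± 0.15 (adjusted p = 0.54). Without siPIEZO1 vehicle replicate 3 the Yoda1 effect in siPIEZO1 cells was 0.52 and called (adjusted p = 0.023). Whether the Yoda1 effect differed between NT and siNTC cells was not tested.

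At 9 h neither stimulus was called for FGF1 in any transfection state with edgeR's quasi-likelihood test. The nearest was Yoda1 in siPIEZO1 cells, where FGF1 stood at 144, 124, 117 and 127 CPM against 94.4, 93.8, 106 and 112 CPM under vehicle, without overlap (0.33 ± 0.10, adjusted p = 0.060). That difference was called with DESeq2 (adjusted p = 0.031) and, at the threshold, without the filter on low counts (0.35, adjusted p = 0.05). NT vehicle libraries held 160, 142, 143 and 158 CPM and NT compression libraries 140, 163, 138 and 145 CPM, ranges that overlapped (-0.04 ± 0.10, adjusted p = 0.91). NT Yoda1 was at 158 ± 22.2 CPM (SD, 0.07 ± 0.10, adjusted p = 0.88). The compression effect in NT cells was lower at 9 h than at 3 h by -0.98 ± 0.15 (adjusted p = 2.2e-06), and the Yoda1 effect by -0.65 ± 0.15 (adjusted p = 0.033, not called when any of 10 of the 16 libraries was left out). In NT vehicle cells FGF1 itself fell by 0.52 ± 0.10 on the log2 scale from 3 h to 9 h (adjusted p = 0.0001). FGF1 also differed between the transfection states, and siNTC vehicle libraries at 9 h held between 98.9 and 106 CPM, all below NT vehicle (-0.57 ± 0.10, adjusted p = 0.00021). Summed fibroblast and synovial markers (7 genes) were lower in the same siNTC libraries as well, at 1190 to 1657 CPM against 1993 to 2209 CPM in NT vehicle, and their part in the FGF1 difference was not tested. The siPIEZO1 vehicle group at 9 h, at 102 ± 8.91 CPM (SD), differed from it by 0.00 ± 0.10.

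**Figure D2:**
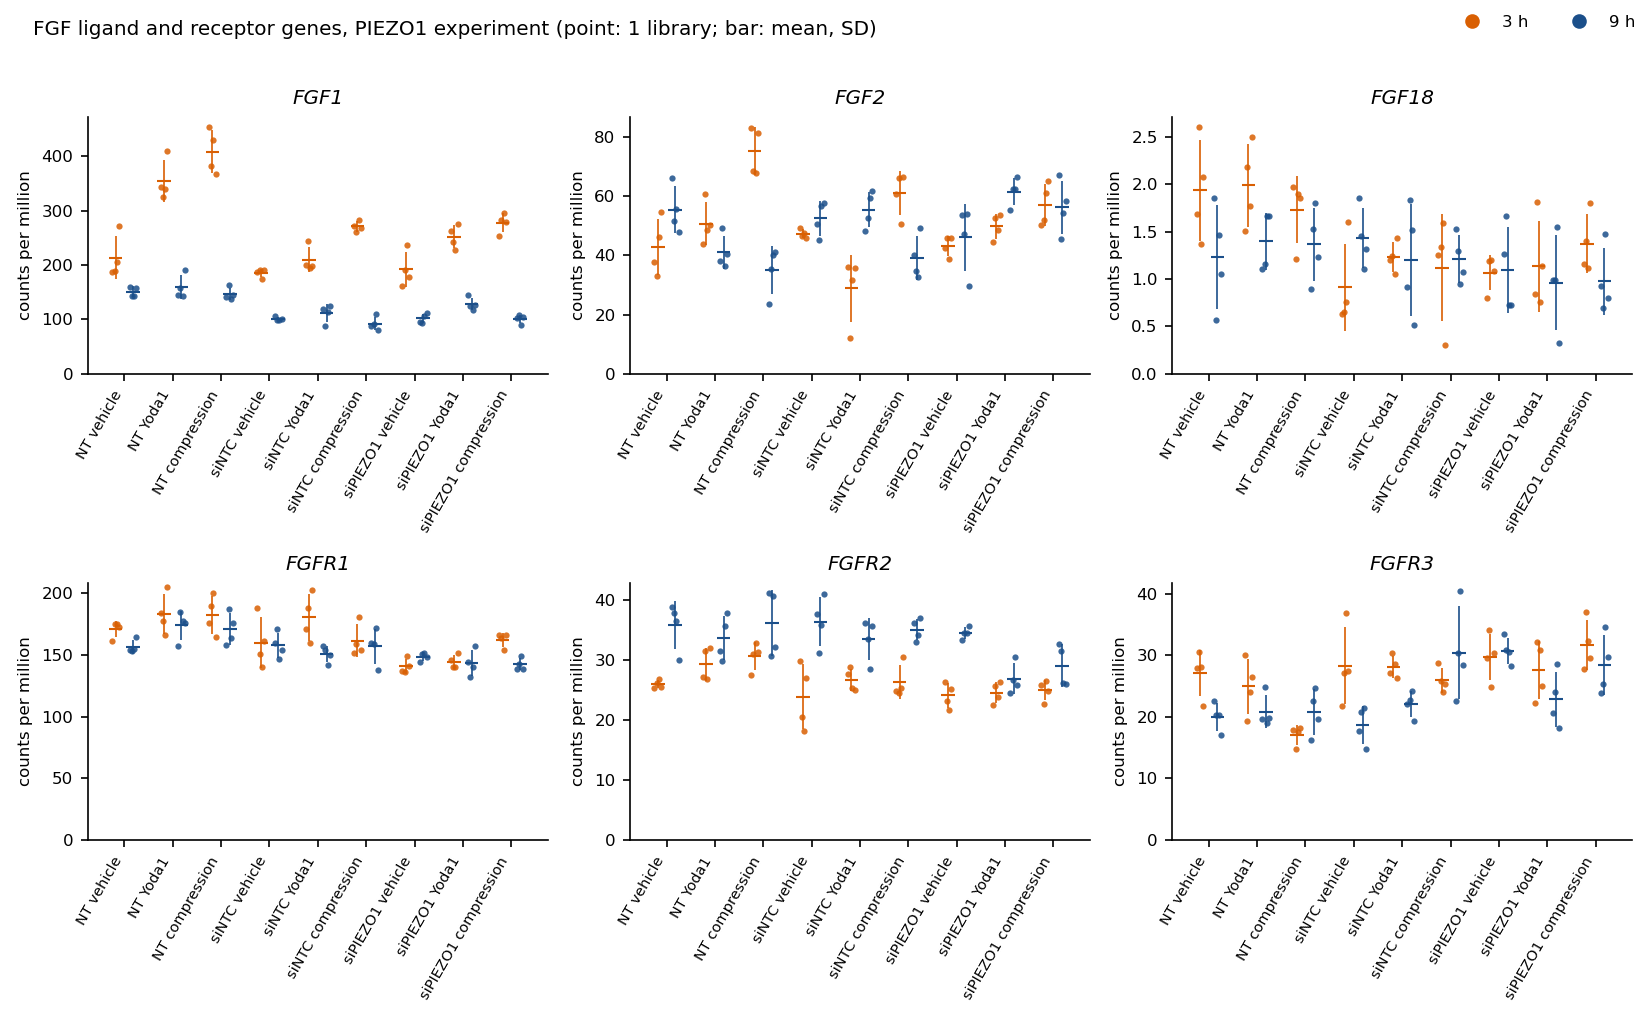
Levels in CPM of the 6 genes (vertical axes, each from 0) in each library of the PIEZO1 experiment by transfection state and stimulus (horizontal axis), with orange points for 3 h, blue points for 9 h, and bars for the mean and SD of 4 libraries. The NT compression libraries at 3 h hold the highest mean FGF1 (368 to 454 CPM) and the lowest FGFR3 of their time (14.7 to 18.2 CPM), while FGF18 stays at or below 2.60 CPM.

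FGF18, which signals to chondrocytes mainly through FGFR3 in mice, rose with the TRPV4 agonist and with IL-1 and did not pass the test under loading. It lies on chromosome 16 at 52724867 to 52760246 (ENSSSCG00000016997). At 3 h DMSO libraries held 2.60, 1.83, 2.22 and 2.83 CPM, GSK101 libraries 5.19, 7.99, 6.70 and 7.51 CPM and IL-1 libraries 5.89, 7.45, 7.37 and 6.03 CPM. Both treated groups lay above all controls, with changes of 1.53 ± 0.16 (adjusted p = 6.4e-09) and 1.50 ± 0.16 (adjusted p = 9.3e-09), and the difference between them was 0.03 ± 0.15 (adjusted p = 0.90).

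At 9 h GSK101 and IL-1 had moved apart for FGF18. DMSO libraries held 1.93, 3.54, 2.44 and 2.03 CPM, GSK101 libraries 34.3, 34.4, 31.8 and 34.0 CPM and IL-1 libraries 16.7, 16.1, 16.3 and 18.8 CPM. The ranges were separate, with a 13.3-fold rise under GSK101 (3.73 ± 0.16, adjusted p = 1.3e-19) and a 6.71-fold rise under IL-1 (2.75 ± 0.16, adjusted p = 2.6e-16). GSK101 exceeded IL-1 by 0.98 ± 0.13 (adjusted p = 1.4e-07), and each effect was larger at 9 h than at 3 h, by 2.25 ± 0.23 for GSK101 (adjusted p = 1.3e-11) and 1.29 ± 0.24 for IL-1 (adjusted p = 1.1e-05).

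Loading libraries held 2.72, 2.51, 3.07 and 2.88 CPM of FGF18 at 3 h and 1.77, 1.82, 3.56 and 2.11 CPM at 9 h, and both ranges overlapped DMSO (0.23 ± 0.17 and -0.19 ± 0.18, adjusted p = 0.45 and 0.49). Without loading replicate 3 the difference at 9 h was -0.43 and called (adjusted p = 0.049). GSK205 at 3 h, with 1.40, 1.67, 2.00 and 1.36 CPM, was lower than DMSO (-0.56 ± 0.18, adjusted p = 0.021), a call lost without GSK205 replicate 1 or 4 or DMSO replicate 1 or 4 (adjusted p 0.051 to 0.095). Loading with GSK205 at 3 h, with 2.05, 2.13, 1.70 and 1.54 CPM, lay below all loading libraries (-0.59 ± 0.17, adjusted p = 0.016), a call lost without its replicate 4 (-0.51, adjusted p = 0.068). At 9 h, with 1.50, 2.34, 2.09 and 2.09 CPM, it lay below GSK205 alone, at 3.20, 3.36, 3.02 and 3.00 CPM (-0.64 ± 0.18, adjusted p = 0.013), a call lost without replicate 1 of the former (-0.52, adjusted p = 0.058). GSK205 against DMSO at 9 h was 0.31 ± 0.18 and not called (adjusted p = 0.24), but was 0.56 and called without DMSO replicate 2 (adjusted p = 0.033). Mean FGF18 under DMSO and GSK205 was low at both times of the TRPV4 experiment, at 1.60 to 3.14 CPM, so fold changes against these groups have small denominators. FGF18 was near the floor in the PIEZO1 experiment, with 15 to 117 reads in each library. No comparison there called it in edgeR's quasi-likelihood test with all libraries. The largest difference was between siNTC vehicle (0.633, 0.654, 0.755 and 1.60 CPM) and NT vehicle (1.69, 2.60, 1.37 and 2.08 CPM) at 3 h, at -1.08 ± 0.36 (adjusted p = 0.055). It was called with DESeq2 (-1.08, adjusted p = 0.021), and in edgeR without siNTC vehicle replicate 4 (-1.49, adjusted p = 0.011).

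FGF2, the FGF stored in the matrix around chondrocytes, was raised by the TRPV4 agonist at both times and lowered by IL-1 at 9 h. It lies on chromosome 8 at 101278877 to 101344084 (ENSSSCG00000036213) and overlaps NUDT6 up to 101302760 and a long noncoding RNA, LOC110261982. The strand setting of the counting is not given in the sources used here, so how reads in the shared stretches were assigned is not known. At 3 h DMSO libraries held 116, 115, 114 and 102 CPM and GSK101 libraries 188, 184, 181 and 182 CPM, clear of each other (0.72 ± 0.07, adjusted p = 8.2e-10). At 9 h GSK101 libraries held 122, 143, 137 and 129 CPM, above the 103, 104, 100 and 115 CPM of DMSO (0.33 ± 0.06, adjusted p = 8e-06). The GSK101 effect on FGF2 was thus smaller at 9 h, by -0.35 ± 0.09 (adjusted p = 0.0016).

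IL-1 left FGF2 close to DMSO at 3 h, with 110, 91.3, 91.0 and 107 CPM (-0.16 ± 0.07, adjusted p = 0.071, called without DMSO replicate 4 or IL-1 replicate 1, adjusted p 0.030 and 0.026). With DESeq2 this difference was called (-0.18, adjusted p = 0.039). At 9 h IL-1 libraries held 27.2, 30.2, 28.5 and 26.7 CPM, far below all other groups of that time (-1.91 ± 0.06 against DMSO, adjusted p = 3e-23). The overlapping NUDT6 model, at 2.24 ± 0.488 CPM under IL-1 and 6.98 ± 0.397 CPM under DMSO at 9 h (SD, n = 4), fell as well (-1.63 ± 0.13, adjusted p = 1.1e-12).

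Loading moved FGF2 up at 3 h and down at 9 h by small amounts. At 3 h loading libraries held 134, 125, 136 and 134 CPM (0.25 ± 0.07, adjusted p = 0.018), a call lost without DMSO replicate 4 or loading replicate 3 (adjusted p = 0.082 and 0.057). At 9 h they held 91.2, 94.9, 88.1 and 98.8 CPM (-0.18 ± 0.06, adjusted p = 0.021), a call lost without DMSO replicate 4 or loading replicate 1 or 3 (adjusted p 0.064 to 0.12). Tested directly, the loading effect was lower at 9 h than at 3 h by -0.40 ± 0.09 (adjusted p = 0.0036).

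FGF2 was the 1 member of 6 whose response to loading was called different with GSK205. GSK205 alone at 3 h held 124, 135, 133 and 119 CPM, above DMSO (0.20 ± 0.07, adjusted p = 0.036, not called without GSK205 replicate 2 or 3 or DMSO replicate 3 or 4, adjusted p 0.051 to 0.13). Loading with GSK205 held 88.7, 100, 104 and 118 CPM, below every library of GSK205 alone (-0.31 ± 0.07, adjusted p = 0.0023) and every library of loading alone (-0.37 ± 0.07, adjusted p = 0.00038). FGF2 was therefore higher with loading in the absence of the antagonist and lower with loading in its presence, and the difference of the effects was -0.56 ± 0.10 (adjusted p = 0.0015). At 9 h this difference was 0.07 ± 0.08 and was not called (adjusted p = 0.71).

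Among PIEZO1 libraries, compression raised FGF2 in NT cells at 3 h and lowered it at 9 h. At 3 h vehicle libraries held 37.8, 33.0, 46.2 and 54.7 CPM and compression libraries 83.3, 68.6, 67.9 and 81.4 CPM, without overlap (0.81 ± 0.18, adjusted p = 0.0045). At 9 h vehicle libraries held 66.4, 51.7, 55.7 and 48.0 CPM and compression libraries 23.5, 35.3, 40.3 and 41.3 CPM, again without overlap but in the opposite order (-0.66 ± 0.16, adjusted p = 0.015). That call was lost without vehicle replicate 1 or compression replicate 1 or 2 (-0.49 to -0.66, adjusted p 0.058 to 0.072), while the change between the times was called at -1.47 ± 0.26 (adjusted p = 3.9e-05). Compression was not called for FGF2 in siNTC or siPIEZO1 cells at 3 h (0.37 ± 0.18 and 0.40 ± 0.18) or at 9 h (-0.43 ± 0.16 and 0.29 ± 0.16). Yoda1 was called for FGF2 in siNTC cells at 3 h (-0.71 ± 0.18, adjusted p = 0.020), where the libraries held 36.2, 12.2, 31.8 and 35.7 CPM against 49.3, 46.5, 47.6 and 45.9 CPM under vehicle. Replicate 2 of the Yoda1 group stood far below the rest. Without it the change was -0.45 and not called (adjusted p = 0.090), and it was also not called without vehicle replicate 1 (adjusted p = 0.057). The Yoda1 effect on FGF2 in siPIEZO1 cells was 0.21 ± 0.18, and its difference from that in siNTC cells was 0.91 ± 0.26 (adjusted p = 0.077, called without siNTC Yoda1 replicate 1 or 4, adjusted p 0.044 and 0.039).

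FGF7, a ligand of the FGFR2 splice form found in epithelia, could not be measured separately. The identifier ENSSSCG00000004651, named GALK2 in the table, carries the Entrez numbers of both FGF7 (chromosome 1, 122215878 to 122278705) and its neighbour GALK2 (122370616 to 122542287), a galactose kinase gene. Reads of FGF7 on this model, if any, cannot be told from those of GALK2. The model held 17.3 ± 1.58 CPM in DMSO libraries at 3 h and 26.0 ± 1.23 CPM at 9 h (SD, n = 4), and fell at 9 h under GSK101 (-0.60 ± 0.08, adjusted p = 2.2e-07) and under IL-1 (-0.98 ± 0.08, adjusted p = 5.5e-12).

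The receptor gene FGFR3 was lower at 9 h under both GSK101 and IL-1. FGFR3 lies on chromosome 8 at 879151 to 894968 (ENSSSCG00000030827). At 3 h DMSO libraries held 813, 848, 833 and 1031 CPM and GSK101 libraries 835, 856, 909 and 888 CPM, overlapping ranges (-0.02 ± 0.07, adjusted p = 0.89). IL-1 at 3 h, with 700, 801, 862 and 741 CPM, was called lower (-0.18 ± 0.07, adjusted p = 0.049), but the ranges overlapped and the call was lost without DMSO replicate 4 (-0.10, adjusted p = 0.31) or without IL-1 replicate 1, 2 or 4 (adjusted p 0.061 to 0.19). At 9 h the picture was clear. DMSO libraries held 794, 744, 746 and 787 CPM, GSK101 libraries 494, 470, 469 and 474 CPM and IL-1 libraries 281, 297, 287 and 298 CPM. All 3 ranges were separate, with changes of -0.69 ± 0.05 for GSK101 (adjusted p = 2.2e-14) and -1.40 ± 0.05 for IL-1 (adjusted p = 1.2e-22), and GSK101 left 1.64 times the FGFR3 of IL-1 (0.71 ± 0.05, adjusted p = 9.3e-15). Loading and GSK205 were not called for FGFR3 against DMSO at either time, although GSK205 at 9 h was called without its replicate 4 (-0.15, adjusted p = 0.016).

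FGFR2 followed FGFR3 at 9 h. FGFR2 lies on chromosome 14 at 131183095 to 131285001 (ENSSSCG00000010698). At 9 h DMSO libraries held 282, 285, 288 and 285 CPM, GSK101 libraries 173, 168, 160 and 190 CPM and IL-1 libraries 147, 139, 133 and 138 CPM. The 3 groups did not overlap, with changes of -0.72 ± 0.05 (adjusted p = 3.9e-15) and -1.03 ± 0.05 (adjusted p = 2.1e-19), and GSK101 exceeded IL-1 by 0.31 ± 0.05 (adjusted p = 6e-07). At 3 h the same agents moved FGFR2 in opposite directions. GSK101 libraries held 328, 322, 325 and 318 CPM, above the 295, 280, 292 and 309 CPM of DMSO (0.14 ± 0.05, adjusted p = 0.025), and IL-1 libraries 247, 252, 268 and 244 CPM, below them (-0.22 ± 0.05, adjusted p = 0.00090). The GSK101 call at 3 h was lost without GSK101 replicate 1 or 3 or DMSO replicate 2 or 3 (adjusted p 0.053 to 0.089) and without the filter on low counts (0.12, adjusted p = 0.14). GSK205 raised FGFR2 at 3 h, to 331, 330, 332 and 353 CPM (0.20 ± 0.05, adjusted p = 0.0031), and loading with GSK205, at 324 ± 15.9 CPM (SD), exceeded loading, at 272 ± 11.7 CPM (0.25 ± 0.05, adjusted p = 0.00055). Neither difference was called at 9 h.

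FGFR1, which lies on chromosome 15 at 48053895 to 48106634 (ENSSSCG00000015815), went the other way under IL-1. At 9 h DMSO libraries held 443, 439, 432 and 444 CPM and IL-1 libraries 622, 607, 600 and 622 CPM, well apart (0.48 ± 0.04, adjusted p = 8.7e-12). At 3 h IL-1 libraries held 482, 522, 558 and 501 CPM, above the 447, 418, 424 and 466 CPM of DMSO (0.23 ± 0.05, adjusted p = 0.00075), and the effect was 0.28 ± 0.06 larger at 9 h (adjusted p = 0.00027). GSK101 was not called for FGFR1, with a change of 0.06 ± 0.05 at 3 h (adjusted p = 0.36) and one of -0.09 ± 0.04 at 9 h (adjusted p = 0.064). GSK205 at 9 h, with 383, 389, 363 and 404 CPM, was lower than DMSO (-0.19 ± 0.04, adjusted p = 0.00096). The changes of all 3 receptor genes under IL-1 were thus larger in size at 9 h than at 3 h, and those of FGFR2 and FGFR3 under GSK101 differed between the times by -0.81 ± 0.06 (adjusted p = 2.3e-15) and -0.63 ± 0.09 (adjusted p = 3.5e-08).

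Several measurements moved with these groups. Small and ribosomal RNA genes took 2.10 to 3.15% of the counts in GSK101 libraries at 3 h and 3.49 to 4.52% in loading libraries at 3 h. They took 5.36 to 9.38% in DMSO libraries at 3 h. Summed fibroblast and synovial markers (7 genes) were 1198 to 1329 CPM in IL-1 libraries and 693 to 733 CPM in GSK101 libraries at 9 h against 551 to 610 CPM in DMSO. In IL-1 libraries at 9 h summed leukocyte markers (7 genes, of which PTPRC, CD163, CD3E and MS4A1 stayed at or under 0.333 CPM in this experiment) were 88.8 to 98.3 against 27.7 to 35.4 CPM. Summed chondrocyte markers were 90841 to 100625 CPM under IL-1 and 85362 to 88851 CPM under GSK101 at 9 h, against 99707 to 104460 CPM under DMSO. Under GSK205 at 9 h they were 85140 to 96434 CPM. At 3 h they were 137034 to 150560 CPM under GSK101 and 126483 to 137683 CPM under GSK205, against 104582 to 124320 CPM under DMSO. Fibroblast and synovial markers at 3 h were 760 to 802 CPM under GSK205 and 718 to 761 CPM under IL-1, against 688 to 716 CPM. Leukocyte markers at 3 h were 47.2 to 56.6 CPM under IL-1 against 27.9 to 34.3 CPM. Summed endothelial markers at 9 h were 5.48 to 6.59 CPM under GSK101 and 6.74 to 7.87 CPM under IL-1, against 3.04 to 5.13 CPM. Fibroblast and synovial markers under loading with GSK205 were 625 to 725 CPM at 3 h, below GSK205 alone. At 9 h they were 585 to 630 CPM against 520 to 569 CPM under GSK205 alone. The part of these measurements in the changes of the FGF genes was not tested.

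Receptor changes in the PIEZO1 experiment were few and mostly in FGFR3. Compression of NT cells lowered FGFR3 at 3 h, from 28.0, 30.6, 28.1 and 21.7 CPM to 17.9, 14.7, 17.5 and 18.2 CPM, with no overlap (-0.67 ± 0.14, adjusted p = 0.0028). It was also lower than under Yoda1, at 30.1, 19.3, 24.0 and 26.4 CPM (-0.55 ± 0.14, adjusted p = 0.024), a call lost without compression replicate 2 or Yoda1 replicate 1 or 4 (adjusted p 0.054 to 0.095). In siNTC and siPIEZO1 cells compression was not called at 3 h (-0.13 ± 0.14 and 0.09 ± 0.14). At 9 h the call was in siNTC cells and upward, from 17.7, 20.8, 21.4 and 14.8 CPM to 22.5, 30.4, 40.5 and 28.4 CPM (0.70 ± 0.16, adjusted p = 0.0052), a call lost without compression replicate 3 (0.54, adjusted p = 0.057). The siPIEZO1 vehicle libraries at 9 h, with 33.4, 30.8, 30.5 and 28.2 CPM, were all above the siNTC vehicle libraries (0.72 ± 0.16, adjusted p = 0.0018). Against siNTC vehicle the same siPIEZO1 libraries also held less of the fibroblast and synovial markers (575 to 673 against 1190 to 1657 CPM) and of the chondrocyte markers (19530 to 24160 against 25462 to 37468 CPM), and more of the endothelial markers (5.72 to 9.68 against 3.22 to 4.72 CPM). Compression changed FGFR3 in siPIEZO1 cells by -0.12 ± 0.15, and the difference from siNTC cells was -0.82 ± 0.22 (adjusted p = 0.052). That difference was called without siNTC vehicle replicate 2, siNTC compression replicate 1 or siPIEZO1 compression replicate 3 (adjusted p 0.015 to 0.042). It was also called with DESeq2 (-0.83, adjusted p = 0.0095) and with the replicate number as a block (-0.82, adjusted p = 0.017).

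Marker sums moved with other called PIEZO1 groups too. At 3 h fibroblast and synovial markers were 1656 to 2185 CPM in NT Yoda1 libraries against 1406 to 1525 CPM under vehicle, and chondrocyte markers 20917 to 25361 CPM in siNTC compression libraries against 27873 to 28722 CPM. At 9 h chondrocyte markers were 39302 to 44910 CPM in NT compression libraries against 29720 to 39124 CPM. Leukocyte markers at 9 h were 13.8 to 53.1 CPM in NT compression libraries against 9.64 to 11.8 CPM, and 31.8 to 51.2 CPM in siNTC compression libraries against 7.75 to 24.2 CPM, with PTPRC at or under 0.557 CPM. Chondrocyte, fibroblast and synovial, leukocyte and endothelial sums overlapped between NT compression and vehicle at 3 h. The part of these markers in the changes of the FGF genes was not tested.

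With time in NT vehicle cells FGFR2 rose from 25.4, 26.2, 26.8 and 25.6 CPM to 38.9, 37.9, 36.6 and 30.1 CPM (0.45 ± 0.11, adjusted p = 0.0018), and FGFR3 was lower at 9 h (-0.45 ± 0.15, adjusted p = 0.031, not called when any of 6 of the 8 libraries was left out). In DMSO cells of the TRPV4 experiment FGFR3 was lower at 9 h as well (-0.26 ± 0.06, adjusted p = 0.0014). Fibroblast and synovial markers in NT vehicle libraries were 1993 to 2209 CPM at 9 h against 1406 to 1525 CPM at 3 h. In DMSO libraries they were 551 to 610 CPM at 9 h against 688 to 716 CPM, and chondrocyte markers 99707 to 104460 CPM against 104582 to 124320 CPM. Their part in these changes with time was not tested. The FGFR3 response to compression of NT cells differed between 9 h and 3 h by 0.72 ± 0.21 (adjusted p = 0.022, not called when any of 5 of the 16 libraries was left out). FGFR1 was not called in any comparison of the PIEZO1 experiment and ranged from 132 to 205 CPM over its 72 libraries.

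**Figure D3:**
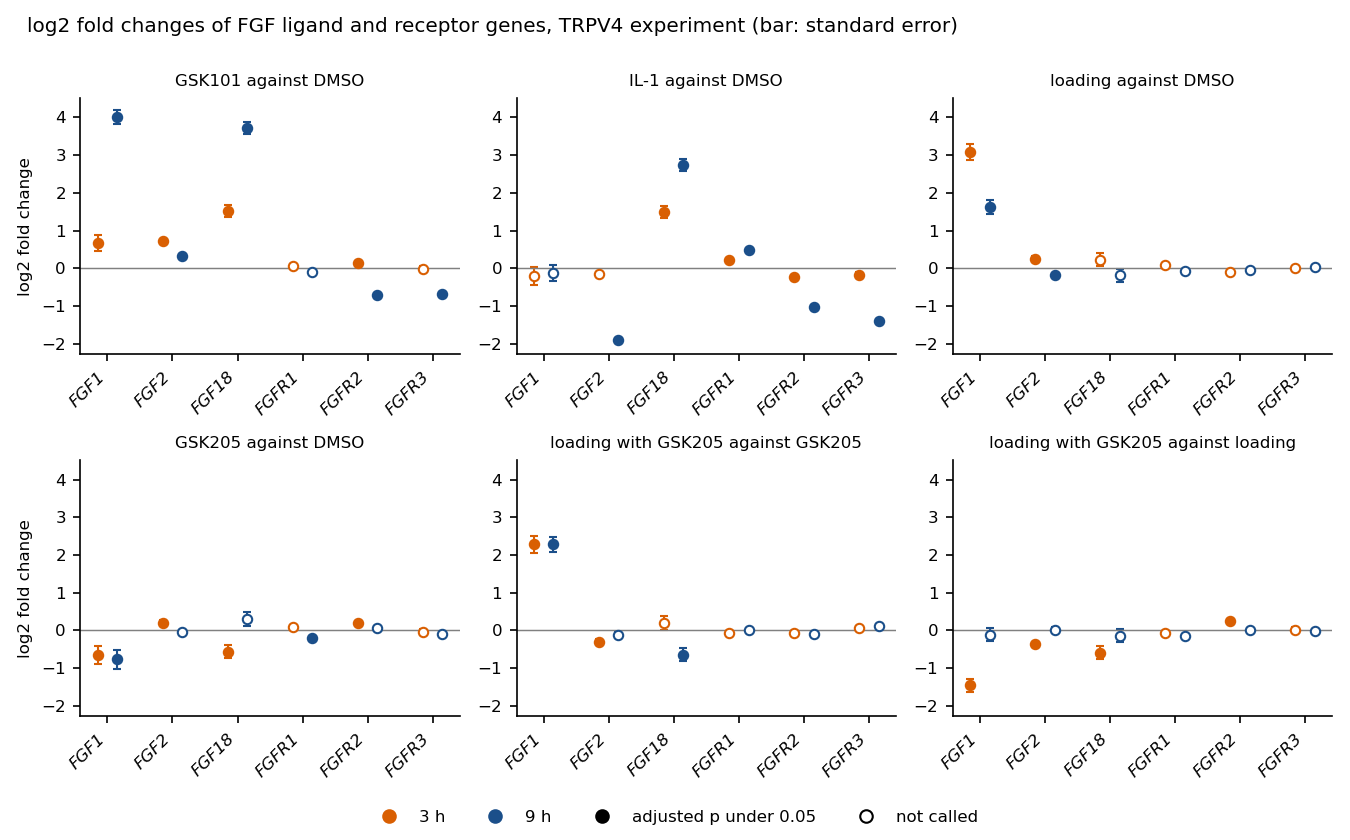
Log2 fold changes (vertical axes) with standard errors of the 6 genes (horizontal axes) in 6 comparisons of the TRPV4 experiment, at 3 h (orange) and 9 h (blue), with filled points for adjusted p under 0.05. At 9 h GSK101 raises FGF1, FGF2 and FGF18 and lowers FGFR2 and FGFR3, whereas IL-1 raises FGF18 and FGFR1 and lowers FGF2, FGFR2 and FGFR3.

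Counts of called members are set beside the share of all genes called in the same comparison. GSK101 against DMSO called 4 of 6 members at 3 h, where 40.0% of all genes tested were called, and 5 of 6 at 9 h, where 62.3% were. IL-1 called 4 at 3 h (32.2% of all genes) and 5 at 9 h (65.1%). With 6 members, these counts are too small to be judged against such shares. Loading called 2 at each time (10.2% and 23.7% of all genes), and GSK205 called 4 at 3 h (27.1%) and 2 at 9 h (21.2%). Loading with GSK205 called 4 against loading at 3 h (15.3%) and 0 at 9 h (4.10%), and 2 against GSK205 alone at 3 h (11.9%) and at 9 h (18.0%). The difference of loading effects with and without GSK205 called 1 at 3 h (2.25%) and 0 at 9 h (4.64%).

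GSK101 against loading called 4 at 3 h (34.2% of all genes) and 5 at 9 h (59.6%), and GSK101 against IL-1 called 4 (41.5%) and 6 (53.8%). Of the contrasts between times, the GSK101 effect called 5 (45.8%), the IL-1 effect 5 (38.8%), the loading effect 2 (10.1%) and DMSO itself 1 (22.2%). In the PIEZO1 experiment at 3 h, Yoda1 called 1 member in NT cells (0.409% of all genes), 1 in siNTC cells (5.40%) and 0 in siPIEZO1 cells (0.262%), and compression called 3 (6.27%), 1 (0.911%) and 1 (0.600%). The differences between siPIEZO1 and siNTC cells called 0 for Yoda1 (0.938%) and 0 for compression (0.00%). Compression against Yoda1 in NT cells called 1 at 3 h (4.32%) and 0 at 9 h (0.784%). The siNTC state against NT called 0 at 3 h (7.53%) and 1 at 9 h (5.30%), and siPIEZO1 against siNTC 0 (5.07%) and 1 (10.8%).

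At 9 h Yoda1 called no member in NT, siNTC or siPIEZO1 cells (0.00%, 0.00% and 2.54% of all genes), and compression called 1, 1 and 0 (3.51%, 6.43% and 2.18%). The differences between siPIEZO1 and siNTC cells at 9 h called 0 for Yoda1 (0.0269%) and 0 for compression (1.09%). Between times in NT cells, the Yoda1 effect called 1 (0.0990%), the compression effect 3 (9.21%) and the vehicle state 3 (16.1%). The comparisons with 0.00% called none of all genes in edgeR's quasi-likelihood test. Yoda1 at 9 h in NT cells had 1580 genes with an unadjusted p under 0.05 and 16 calls with DESeq2, Yoda1 in siNTC cells 982 and 2, and the difference of compression effects at 3 h 854 and 1.

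Genes that FGF signalling through ERK is known to switch on, a list of 18 that includes its feedback inhibitors, were called higher in most cases under GSK101. The list was chosen with earlier results of these data known, and other pathways that use ERK switch these genes on too. At 3 h 14 of 17 tested genes rose and none fell, with a median change of 0.40, where 22.0% of all genes rose, 18.0% fell and the median was 0.01. At 9 h 11 rose and 2 fell (median 0.73, all genes 29.3% and 33.0%, median -0.07). DUSP5, a phosphatase that inactivates ERK in the nucleus, went from 6.66 ± 1.11 to 108 ± 5.83 CPM at 3 h (SD, 4.00 ± 0.12, adjusted p = 1.1e-22). PHLDA1, an ERK-induced gene, rose by 2.56 ± 0.08 and DUSP6, the cytoplasmic ERK phosphatase, by 2.31 ± 0.30 at 3 h. At 9 h SPRY2, an inhibitor of receptor tyrosine kinase signalling, rose from 41.2 ± 1.60 to 380 ± 10.8 CPM (3.21 ± 0.06, adjusted p = 7.3e-30).

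Loading moved 6 of these 17 genes up and none down at 3 h (median 0.13, all genes 7.86% and 2.30%), led by DUSP5 (1.11 ± 0.12), SPRY4 (0.98 ± 0.19) and SPRY2 (0.50 ± 0.08). At 9 h 2 rose and 7 fell (median -0.27, all genes 12.5% and 11.2%). GSK205 moved 8 down and none up at 3 h (median -0.42, all genes 14.6% rose and 12.5% fell), with SPRED3 at -0.92 ± 0.31, PHLDA1 at -0.85 ± 0.08 and SPRY4 at -0.83 ± 0.22. At 9 h GSK205 moved 3 up and 4 down (all genes 12.1% and 9.15%). Loading with GSK205 against loading at 3 h moved 1 up and 9 down (median -0.39, all genes 7.11% and 8.16%), while against GSK205 alone 4 rose and none fell (all genes 7.58% and 4.35%).

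IL-1 split the list. At 3 h 4 rose and 5 fell (all genes 18.5% and 13.7%), and at 9 h 7 rose and 6 fell (median -0.07, all genes 30.6% and 34.5%, median -0.07). DUSP5 rose by 4.42 ± 0.09 at 9 h, to 166 ± 4.62 CPM, while the ETS factor gene ETV4 fell by 1.96 ± 0.11 on the log2 scale and IL17RD, an inhibitor of FGF receptor signalling, by 2.28 ± 0.58. GSK101 against IL-1 at 9 h moved 11 up and 2 down (all genes 27.5% and 26.4%), with the cyclin D1 gene CCND1 at 4.34 ± 0.10, DUSP6 at 3.31 ± 0.19 and SPRY2 at 2.97 ± 0.06.

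**Figure D4:**
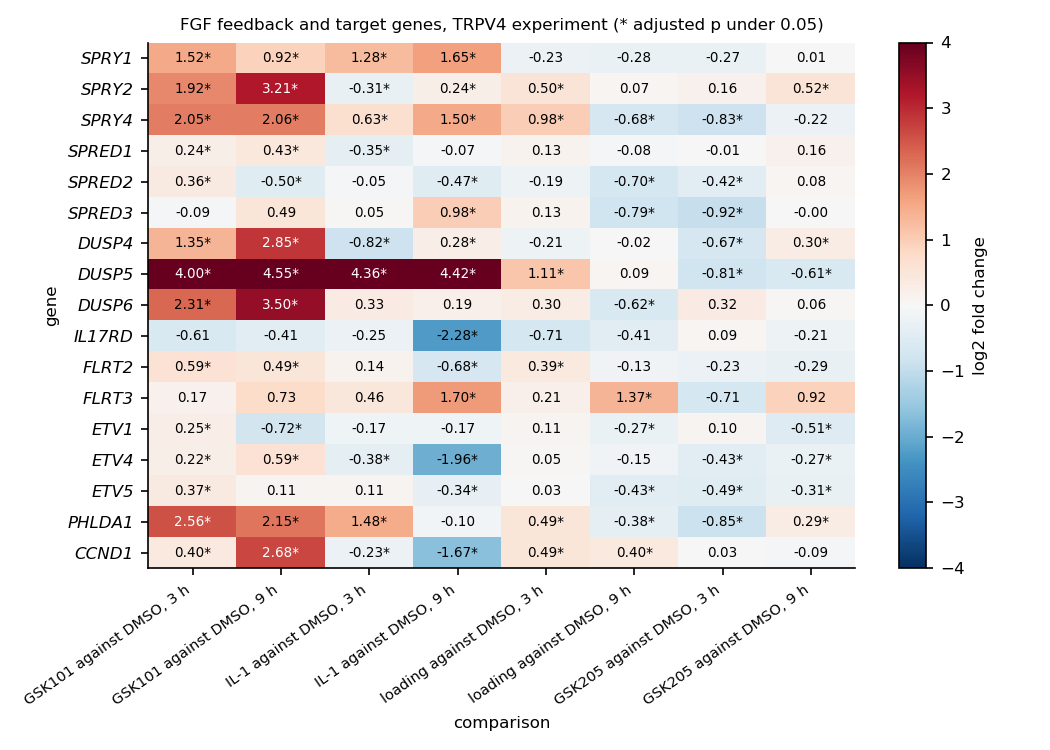
Log2 fold changes, written in each cell and coloured on a scale that ends at 4, of 17 FGF feedback and target genes (rows) in 8 comparisons of the TRPV4 experiment (columns), with an asterisk for adjusted p under 0.05. DUSP5 rises in both GSK101 and both IL-1 columns, whereas SPRY2, DUSP4 and DUSP6 rise most under GSK101.

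In the PIEZO1 experiment compression of NT cells at 3 h moved 7 of 17 feedback and target genes up and 1 down (median 0.75, all genes 4.18% and 2.09%, median -0.04). SPRY2 went from 12.3 ± 1.15 to 43.0 ± 10.4 CPM (SD, 1.81 ± 0.16, adjusted p = 6.3e-10), DUSP5 rose by 1.48 ± 0.21 and DUSP4 by 1.21 ± 0.15. Yoda1 in NT cells at 3 h moved 3 up and none down (0.338% and 0.0709% of all genes), namely DUSP6 (0.98 ± 0.19), SPRY2 (0.72 ± 0.16) and DUSP4 (0.68 ± 0.15). Compression at 3 h moved 2 up in siNTC cells and 2 up in siPIEZO1 cells, SPRY2 and DUSP4 in both, where 0.584% and 0.393% of all genes rose. At 9 h compression in NT cells moved 1 up and 2 down (all genes 2.15% and 1.36%), with SPRY2 at -0.66 ± 0.12. The siPIEZO1 vehicle libraries at 9 h had 5 of 18 of these genes higher than siNTC vehicle and none lower, where 4.81% of all genes were higher and 6.03% lower.

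Of 25 other FGF family genes, 23 had a line in the table and 6 to 11 passed the filter on low counts at each time and experiment, so most members of the family were too low to test. FGFRL1, a receptor without the kinase domain, was chosen for description after its values were seen, as were FGFR4 and FGF22. It rose under GSK101 at 3 h (0.28 ± 0.07, adjusted p = 0.0013) and then fell at 9 h, from 244 ± 5.46 to 166 ± 6.16 CPM (SD, -0.56 ± 0.05, adjusted p = 3e-12), and the difference between times was -0.80 ± 0.08. IL-1 lowered FGFRL1 to 117 ± 6.23 CPM at 9 h (-1.06 ± 0.05, adjusted p = 1.8e-19) and FGFR4, the fourth kinase receptor, from 39.1 ± 1.05 to 23.3 ± 1.22 CPM (-0.75 ± 0.07). Under GSK101 at 9 h 5 of 8 tested genes fell and none rose (33.0% and 29.3% of all genes), and under IL-1 2 rose and 4 fell (30.6% and 34.5%). The ligand genes among them were at low levels: FGF22 rose under IL-1 at 9 h from 3.49 ± 0.187 to 5.54 ± 0.603 CPM (0.67 ± 0.15), and FGF10, FGF13, FGF17 and FGF21 stayed at or under 1.62 CPM in the mean of DMSO, GSK101 and IL-1 libraries at 9 h. In NT cells of the PIEZO1 experiment compression lowered FGFRL1 at 3 h (-0.88 ± 0.22, adjusted p = 0.012) and raised FGFR4 at 9 h (1.09 ± 0.18, adjusted p = 0.00027).

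The 19 genes of the adaptor and ERK cascade list were all tested in both experiments. GSK101 moved 11 up and 1 down at 3 h (median 0.18, all genes 22.0% and 18.0%), with the MEK gene MAP2K1 at 0.59 ± 0.06, and 8 up and 5 down at 9 h (median -0.05, all genes 29.3% and 33.0%). At 9 h MAP2K1 rose under GSK101 (1.82 ± 0.05) and IL-1 (1.85 ± 0.05), while PLCG1, the phospholipase that binds FGF receptors, fell under both (-1.66 ± 0.06 and -2.31 ± 0.06), as did the adaptor FRS3 (-0.97 ± 0.20 and -1.38 ± 0.19). Loading moved 3 up at 3 h (all genes 7.86%), and 2 up and 4 down at 9 h (12.5% and 11.2%). In the PIEZO1 experiment compression of NT cells at 3 h called NRAS alone (0.52 ± 0.16, adjusted p = 0.043), where 4.18% of all genes rose.

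Heparan sulfate proteoglycans and the enzymes that build their chains, which FGFs need to bind receptors, were tested as 25 of 27 genes. GSK101 moved 9 up and 1 down at 3 h (all genes 22.0% and 18.0%), and IL-1 4 up and 2 down (18.5% and 13.7%). At 9 h each agent moved 7 up and 10 down, near the share of all genes called in either direction (62.3% for GSK101 and 65.1% for IL-1). SDC4, a cell-surface heparan sulfate proteoglycan, rose under IL-1 by 2.45 ± 0.05 at 3 h and 3.60 ± 0.05 at 9 h and under GSK101 by 0.56 ± 0.05 and 1.22 ± 0.05. EXT1, the polymerase of the chains, rose under IL-1 at 9 h (1.78 ± 0.06), as did the epimerase gene GLCE (1.35 ± 0.06). SDC4 was also a gene whose loading effect at 3 h differed with GSK205 (-0.41 ± 0.07, adjusted p = 0.00062), and no other gene of this list was called there. Compression called 1 of 25 in NT cells of the PIEZO1 experiment at each time, where 6.27% (3 h) and 3.51% (9 h) of all genes were called. These were SULF1, a sulfatase that acts on the chains (0.43 ± 0.13), at 3 h and the proteoglycan gene SDC2 (1.47 ± 0.38) at 9 h.

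Likeness to each member was listed by Pearson's r of mean log2 CPM over the 12 groups of the TRPV4 experiment, among named genes. It is a description over groups that share controls, times and a library kit. FGF1 was most like the microRNA gene ssc-mir-125b-1 (0.90), LAMA3 (0.88) and METTL3 (0.86). FGF18 was most like SGMS2 (0.99), KIF27 (0.98) and PDLIM5 (0.98), FGF2 like MYO6 (0.98), SHROOM4 (0.97) and JUP (0.96), and FGFR1 like MYBPC3 (0.96), ZNF423 (0.95) and PGF (0.95). FGFR2 was most like MAZ (0.99), SEPTIN6 (0.98) and ANP32A (0.98), and FGFR3 like SLC44A2, CA12 and PTGIS (0.99 each). Among the members themselves, FGFR2 and FGFR3 had r = 0.95 and FGF18 had r = -0.83 with FGFR2 and -0.77 with FGFR3. Over the 18 groups of the PIEZO1 experiment FGFR2 and FGFR3 had r = -0.54, and FGF1 was most like EVA1A (0.98), PLEKHA2 (0.97) and PALM2AKAP2 (0.97). There FGF2 was most like SPRED1 (0.94), itself in the feedback list, SERINC1 (0.92) and TRPM7 (0.91). FGFR1 was most like MAN2A2 (0.92), FGFR2 like ADAMTS6 (0.93) and FGFR3 like LARP4B (0.91), and FGF18, at its low counts, like PDZD2 (0.89).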

How the data were processed

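RNA of 120 pig chondrocyte libraries was sequenced in a TRPV4 experiment (ribosomal RNA removal, random priming) and a PIEZO1 experiment (SMARTer Ultra Low kit, 10 ng of RNA), per the labels' protocols. The authors deposited raw counts per gene in 1 table. Reads were processed with Trim Galore, STAR and HTSeq on Sscrofa11.1, per the submitters' processing notes. Versions of these tools were not given in the sources used here, nor was the counting strand. The table held 32388 lines, of which 481 repeats were removed, leaving 31907 identifiers. Gene positions came from RefSeq's annotation of Sscrofa11.1.

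Each experiment and time was fitted apart in edgeR 4.0.16 (R 4.3.3, limma 3.58.1) with 1 term per group, filterByExpr with a minimum count of 10, TMM scaling and the quasi-likelihood test. Benjamini-Hochberg adjustment ran over all 16562 (3 h) and 16540 (9 h) genes tested in the TRPV4 experiment and 18330 and 18611 in the PIEZO1 experiment. Contrasts between times used a fit of both times. In all, 47 comparisons were made. The fit was tested on simulated data. No 2 libraries of a group agreed within counting noise (chi-square per degree of freedom at least 5.12).

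The members and gene lists were chosen with earlier results of these data known. Every member is named, and from each other list at most the 3 called genes with the largest change per comparison, except where stated. The values of 1 gene that this rule names are not reported here. Likeness is Pearson's r of mean log2(CPM + 1) over groups, and identifiers without a gene symbol were left out of it. Alternatives were DESeq2 1.42.0, no filter on low counts, the replicate number as a block, and leaving out each library. The libraries carry replicate numbers that the labels do not tie to an animal or day.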

Additional observations from a re-analysis of the deposited data

Results flagged for a closer look

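In 12 of 180 groups of 4 libraries, 1 library of a member stood far from the other 3, where chance alone gives about 1 in 20 groups. In the TRPV4 experiment at 3 h these were FGF2 in DMSO replicate 4 (102 CPM, others 114 to 116), FGF2 in loading replicate 2 (125, others 134 to 136), FGFR2 in GSK205 replicate 4 (353, others 330 to 332) and FGFR3 in DMSO replicate 4 (1031, others 813 to 848). DMSO replicate 4 at 3 h was thus apart for FGF2 and FGFR3, and at 9 h FGF18 in GSK101 replicate 3 was apart (31.8, others 34.0 to 34.4). PIEZO1 libraries apart at 3 h were FGF1 in siNTC Yoda1 replicate 2 (244, others 195 to 200), FGF18 in NT compression replicate 2 (1.21, others 1.85 to 1.97), FGF18 in siNTC vehicle replicate 4 (1.60, others 0.633 to 0.755), FGFR1 in siPIEZO1 compression replicate 3 (154, others 164 to 166) and FGFR2 in siNTC compression replicate 4 (30.5, others 24.6 to 25.4). At 9 h they were FGFR1 in NT vehicle replicate 4 (165, others 153 to 155) and FGFR3 in NT Yoda1 replicate 2 (24.8, others 19.0 to 19.8).

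A tested difference between effects was called 17 times, all in edgeR's quasi-likelihood test. With and without GSK205, the FGF2 response to loading at 3 h differed by -0.56 (adjusted p = 0.0015). Between 9 h and 3 h, the GSK101 effect differed for FGF1 (3.38), FGF18 (2.25), FGF2 (-0.35), FGFR2 (-0.81) and FGFR3 (-0.63), with adjusted p at most 0.0016. The IL-1 effect differed for FGF18 (1.29), FGF2 (-1.70), FGFR1 (0.28), FGFR2 (-0.78) and FGFR3 (-1.18), with adjusted p at most 0.00027. The loading effect differed for FGF1 (-1.43) and FGF2 (-0.40), with adjusted p at most 0.0036. In NT cells the Yoda1 effect differed for FGF1 (-0.65, adjusted p = 0.033), and the compression effect for FGF1 (-0.98), FGF2 (-1.47) and FGFR3 (0.72, adjusted p = 0.022).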

How the results depend on the processing

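No member's called change turned direction under DESeq2, without the filter on low counts, with the replicate block or with any library left out. With DESeq2 14 of 276 member results gained a call and none lost one. At 3 h the gains included FGFR2 under loading (-0.13, adjusted p = 0.031) and FGF2 under IL-1 (-0.18, adjusted p = 0.039). FGFR3 gained a call for GSK101 against IL-1 at 3 h (0.17, adjusted p = 0.042). It also gained one for loading with GSK205 against GSK205 alone at 9 h (0.12, adjusted p = 0.022). Members called rose from 0 to 1 for loading with GSK205 against loading at 9 h (FGFR1) and Yoda1 in siPIEZO1 cells at 3 h (FGF1). The same held for the Yoda1 difference between siPIEZO1 and siNTC at 3 h (FGF2) and siNTC against NT at 3 h (FGF18). They rose from 1 to 2 for compression against Yoda1 at 3 h and compression in siNTC cells at 9 h, with FGF2 gained in both. They rose from 0 to 2 for Yoda1 in siPIEZO1 cells at 9 h (FGF1 and FGFR2). The compression difference between siPIEZO1 and siNTC at 9 h also went from 0 to 2 (FGF2, 0.70, adjusted p = 0.045, and FGFR3). Without the filter, Yoda1 in siPIEZO1 cells at 9 h called 1 (0 with it) and the difference of the Yoda1 effect between times 0 (1 with it).

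The numbers were not taken to pair the libraries, since the labels do not tie them to an animal or day. Deviations of same-numbered libraries had a mean r of -0.000903 to 0.00910 over the 6 fits, and some pairs were negative in each. The share of libraries that correlated best with their own number was 20.8 to 25.0% in the TRPV4 fits. In the PIEZO1 fits it was 19.4% at 3 h, 47.2% at 9 h and 37.5% for both times. With 4 replicate numbers, 1 in 4 libraries would do so by chance, and the last 2 shares lay above that. Not every library correlated best with its own number in any fit. This check cannot exclude a weak pairing, because such a pairing need not make every library match its number. With the replicate block, members called went from 0 to 2 for Yoda1 in siPIEZO1 cells at 9 h (FGF1, 0.33, adjusted p = 0.05, and FGFR3, -0.45, adjusted p = 0.045) and from 0 to 1 for the compression difference at 9 h (FGFR3, -0.82, adjusted p = 0.017), and FGF1 under GSK205 (adjusted p = 0.053) and FGFR3 under IL-1 (adjusted p = 0.064) at 3 h lost their calls. All genes called with the replicate block moved by over 1.5 times for the loading and GSK205 difference at 3 h (372 to 230), Yoda1 in NT at 9 h (0 to 3), the Yoda1 difference at 9 h (5 to 88), compression in NT at 9 h (653 to 1043) and compression against Yoda1 at 9 h (146 to 282).

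With 1 library left out, members called ranged from 2 to 4 for GSK101 at 3 h, 1 to 4 for GSK205 at 3 h, 1 to 3 for GSK205 at 9 h and for loading with GSK205 against GSK205 at 9 h, and 1 to 2 for loading at 3 h and at 9 h. They ranged from 0 to 1 for loading with GSK205 against loading at 9 h, for Yoda1 in siNTC, Yoda1 in siPIEZO1, the Yoda1 difference, compression in siPIEZO1, compression against Yoda1 and siNTC against NT at 3 h, for compression in NT and siNTC and the compression difference at 9 h, and for the Yoda1 effect between times. Of 2784 such member results, 65 lost a call and 15 gained one. Counts of all genes called moved by over 1.5 times in 120 of 464, for example from 43 to 673 for Yoda1 in siPIEZO1 cells at 9 h, where the count with all libraries was 472.

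With DESeq2 the genes called moved by over 1.5 times in 21 of 47 comparisons. In the TRPV4 experiment these were the loading and GSK205 difference at 3 h (372 to 666) and 9 h (767 to 1155) and loading with GSK205 against loading at 9 h (678 to 1173). Among PIEZO1 comparisons at 3 h they were Yoda1 in NT (75 to 230), siNTC (989 to 1570) and siPIEZO1 (48 to 146), the Yoda1 difference (172 to 492), compression in siNTC (167 to 391) and siPIEZO1 (110 to 275), the compression difference (0 to 1) and compression against Yoda1 (792 to 1315). At 9 h they were Yoda1 in NT (0 to 16), siNTC (0 to 2) and siPIEZO1 (472 to 856), the Yoda1 difference (0.0269% to 0.543% of genes), compression in NT (653 to 1211), siNTC (1196 to 1911) and siPIEZO1 (405 to 694), the compression difference (202 to 491), compression against Yoda1 (146 to 299) and the Yoda1 effect between times (20 to 41). Without the filter the Yoda1 difference at 9 h moved from 5 to 16. The share of calls that were higher moved for compression in siNTC at 3 h from 64.1% to 51.2% with DESeq2 and 45.5% without the filter, and with DESeq2 for the Yoda1 difference at 9 h from 20.0% to 48.5% and compression in siPIEZO1 at 9 h from 61.7% to 49.9%. No alternative moved the median of all genes by over 0.07 on the log2 scale. The cause of these moves was not tested.

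Libraries of a group varied more in the PIEZO1 experiment, with a common biological coefficient of variation of 0.282 (3 h) and 0.3 (9 h) against 0.107 and 0.0874 for TRPV4. FGF18 in the PIEZO1 experiment rests on 15 to 117 reads per library.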
